A study of Mus musculus with 180 samples.

Results

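Total RNA of the membrane fraction of mouse brain, hippocampus by the title of the series, was compared between sleep-deprived (SD) mice and mice left to sleep (Sleep). The libraries were those labelled Input from the pellet, 30 of the 180 in the series, 1 per mouse. They came from 7 CFC SD, 7 NoCFC SD, 8 CFC Sleep and 8 NoCFC Sleep mice, where CFC is contextual fear conditioning, a single-context learning task, and NoCFC mice had none. SD (14 mice) was set against Sleep (16 mice), averaged over both training arms. All mice were male and carried the Camk2a-cre transgene T29-1 with the Rpl22tm1.1Psam allele, which puts an HA tag on ribosomal protein Rpl22 in cells that express the Cre. The length of the sleep deprivation and the age of the mice are not given in the labels. Input was taken before any antibody capture, so it holds RNA of every cell type in the tissue, although the labels give the cell type as neuron. Markers of dentate granule, CA1 and CA3 or CA2 pyramidal cells were detected together with those of astrocytes and oligodendrocytes. The 24 astrocyte markers summed to 22833 to 27577 CPM (counts scaled to library size) in SD mice and 21704 to 28437 CPM in Sleep mice. The 15 excitatory neuron markers summed to 6068 to 11484 CPM in SD mice and 6673 to 12368 CPM in Sleep mice.

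After homogenization and centrifugation, ribosomes bound to the endoplasmic reticulum (ER) and other membranes go to the pellet, and these ribosomes make secreted and membrane proteins. Chaperones of the ER lumen fold such proteins, and when unfolded protein builds up, membrane sensors switch on their genes through the transcription factors Xbp1 and Atf6, the unfolded protein response. Prolonged wakefulness is known to raise the chaperone Hspa5 (BiP) in mouse cerebral cortex, and sleep deprivation of rodents is known to raise circulating glucocorticoids, whose receptor acts on transcription in neurons and glia.

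Total counts per library were 11980405 to 21818099 in SD mice and 13808186 to 23953314 in Sleep mice, and mitochondrially encoded genes took 5.60 to 8.38% in SD mice and 6.03 to 8.66% in Sleep mice. Values of genes with few counts are the least precise. In 7 libraries, those of 4 SD and 3 Sleep mice, Ttr, a choroid plexus transcript, was at 1167 to 3727 CPM, against 6.40 to 67.2 CPM in the other 23. The arms were uneven: these were CFC SD mice 18, 22 and 29, CFC Sleep mouse 14, NoCFC SD mouse 7 and NoCFC Sleep mice 2 and 23. The libraries of CFC SD mice 22 and 30 and CFC Sleep mouse 16 lay apart from the rest on the first principal component, which held 13.7% of the variance. Mouse numbers form 3 runs that partly follow the training: mice 1 to 11 were all NoCFC, mice 12 to 22 all CFC, and mice 23 to 30 held 2 of each group. The labels do not call these runs batches, so values within each run are given beside the pooled ones.

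Few genes passed the test, and those that passed changed mostly by small amounts. Of 15642 genes tested, 164 were higher (1.05%) and 50 lower (0.32%) in SD at an adjusted p below 0.05 in edgeR's quasi-likelihood test with Benjamini-Hochberg adjustment, the test behind every adjusted p given here unless another is named. Among these 214 genes the median absolute log2 fold change was 0.29. The change passed 1.5-fold for 14 higher and 8 lower genes, and 2-fold for 3 higher and 1 lower gene. DESeq2 called 198 higher and 81 lower. In counts simulated with this design, the edgeR test recovered 46 of 99 genes changed 1.2-fold and 82 of 100 changed 1.5-fold. Genes that did not pass may therefore still have changed. Without the 7 libraries high in Ttr 71 genes were higher and 21 lower, and without mice 1 to 11, which leaves 2 NoCFC mice per sleep group, 3 were higher and 3 lower.

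**Figure D1:**
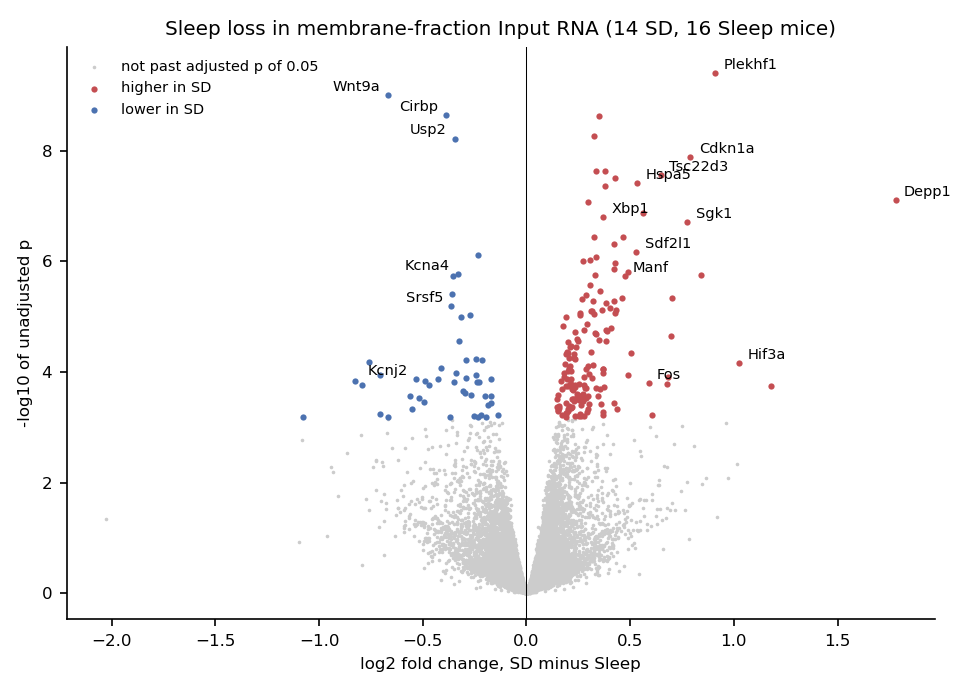
Each point is 1 of the 15642 genes, with the log2 fold change (SD minus Sleep) on the x axis and -log10 of the unadjusted p on the y axis. The 164 genes higher in SD are red, the 50 lower genes are blue, and Depp1 lies farthest to the right, at 1.78.

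By count, and in lists of unequal size, ER chaperone genes were the most numerous group of called genes. Of 41 tested genes of the ER chaperone and unfolded protein response list, 12 rose and 0 fell, where 1.05% of all genes rose. The median log2 fold change of the list was 0.08, against -0.00 for all genes tested. This list, like the other gene lists below, was chosen with earlier results of these data known, so its share is not a test. The promoters of 4 of the 12 genes hold the ER stress response element (ERSE), to which Atf6 and Xbp1 bind together with NF-Y, and 2 hold the shorter element ERSE-II. They are shown 5′ to 3′ on the strand of the gene, with the element in capitals, because these elements are the best known way by which Hspa5 and related chaperone genes are known to be switched on together. The sequences are from RefSeq on GRCm38.p6, all on the plus strand. That of Hspa5 is the 250 bases before the start (chr2:34771840-34772089), those of Creld2 (chr15:88819495-88819563), Dnajc3 (chr14:118937802-118937870), Pdia6 (chr12:17266466-17266534) and Herpud1 (chr8:94386352-94386412) reach 25 bases to either side of the element, and that of Dnajb11 (chr16:22857827-22857874) ends 30 bases into the transcript. In Creld2 the element lies on the opposite strand.
Hspa5: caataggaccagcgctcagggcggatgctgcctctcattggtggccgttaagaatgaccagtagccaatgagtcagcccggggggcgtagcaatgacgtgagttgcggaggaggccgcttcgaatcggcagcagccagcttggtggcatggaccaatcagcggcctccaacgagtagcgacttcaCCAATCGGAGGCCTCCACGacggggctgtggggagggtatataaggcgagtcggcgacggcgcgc
Creld2: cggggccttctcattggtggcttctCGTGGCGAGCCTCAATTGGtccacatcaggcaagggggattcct
Dnajc3: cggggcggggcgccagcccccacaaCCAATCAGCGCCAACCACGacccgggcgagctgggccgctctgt
Pdia6: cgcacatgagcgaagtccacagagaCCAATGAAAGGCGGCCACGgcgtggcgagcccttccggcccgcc
Herpud1: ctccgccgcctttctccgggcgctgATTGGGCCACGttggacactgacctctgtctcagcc
Dnajb11: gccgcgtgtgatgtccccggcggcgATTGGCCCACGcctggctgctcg

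ERSE was searched as CCAAT and CCACG with 9 bases of any kind between them, and ERSE-II as ATTGG and CCACG with 1 base between them, on both strands, in the 300 bases from 250 before to 50 after the start. ERSE was found in 39 of 32851 RefSeq promoters (0.119%) and ERSE-II in 12 (0.0365%). Of the 42 list genes 32 had a promoter in the table, and Manf had none. Among 11 promoters of genes that rose, ERSE was found in 4 and ERSE-II in 2. Among 21 promoters of list genes that did not pass, ERSE was found in 5, those of Calr, Canx, Derl3, Hsp90b1 and Syvn1, and ERSE-II in 0. These are matches of letters in a window, not measured binding.

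Hspa5 (chromosome 2, 34771970 to 34777547, GRCm38), the main Hsp70 chaperone of the ER lumen, was at 420 to 957 CPM in SD mice (median 605), against 346 to 519 CPM in Sleep mice (median 428). It exceeded the highest Sleep value in 10 of 14 SD mice and the Sleep median of its training arm in 14 of 14. The log2 fold change was 0.53 ± 0.07 (SE, adjusted p = 4.91e-05), and the runs of mice, from the lowest numbers to the highest, gave differences of 0.47, 0.41 and 0.70. Sdf2l1 (chromosome 16, 17130138 to 17132383), an ER lumen partner of the Hsp70 system, was at 32.9 to 81.8 CPM in SD mice (median 44.8), against 22.2 to 40.4 CPM in Sleep mice (median 32.9). The groups overlapped, with 9 of 14 SD mice above every Sleep mouse, and the change was 0.53 ± 0.09 (adjusted p = 0.000484). The J-domain cochaperones of Hspa5 rose less: Dnajc3 by 0.26 ± 0.05 and Dnajb11 by 0.19 ± 0.05 (adjusted p = 0.00263 and 0.0329). Dnajb9, another J-domain cochaperone, was at 0.01 ± 0.09, and Hsp90b1, the Hsp90 of the ER, at 0.16 ± 0.05 (adjusted p = 0.986 and 0.118).

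Manf (chromosome 9, 106838312 to 106891979), a secreted protein released on ER stress, was at 62.7 to 149 CPM in SD mice (median 85.8), against 51.1 to 77.4 CPM in Sleep mice (median 62.7). It was above every Sleep mouse in 8 of 14 SD mice, with a log2 fold change of 0.47 ± 0.08 (adjusted p = 0.000855). The exons of Manf overlap those of 3 other genes, which makes its count uncertain, since no source says whether reads were counted by strand. Creld2 (chromosome 15, 88819646 to 88826683), an ER protein of the same response, was at 37.2 to 79.1 CPM in SD mice (median 47.7), against 26.2 to 44.2 CPM in Sleep mice (median 37.1). All 14 SD mice lay above the Sleep median of their arm, and the change was 0.46 ± 0.07 (adjusted p = 0.000283).

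Of the protein disulfide isomerases and oxidases, which form and reshuffle disulfide bonds, 3 of 8 rose. Pdia4 rose by 0.34 ± 0.07, Pdia6 by 0.31 ± 0.05 and Pdia3 by 0.22 ± 0.05 (adjusted p = 0.00478, 0.00058 and 0.0199). Of the lectin chaperones of the calnexin cycle 0 of 3 passed: Calr was at 0.18 ± 0.05 and Canx at -0.00 ± 0.06 (adjusted p = 0.0925 and 0.995). Among 8 genes of ER-associated degradation, which sends misfolded proteins to the proteasome, Herpud1 rose by 0.23 ± 0.05 (adjusted p = 0.0105). Of the transcription factors, Xbp1 (chromosome 11, 5520659 to 5525893) was at 177 to 326 CPM in SD mice (median 236), against 151 to 221 CPM in Sleep mice (median 191). It was higher than every Sleep mouse in 9 of 14 SD mice and changed by 0.37 ± 0.06 (adjusted p = 0.000145). Gene counts do not separate its spliced from its unspliced form. Creb3l2, an ER membrane-bound transcription factor, rose by 0.25 ± 0.07 (adjusted p = 0.0472), and its call was lost with other size factors. The sensors Ern1, Atf6 and Eif2ak3 lay between -0.15 and 0.07, and 0 of the 3 passed.

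The list kept 5 higher genes without mice 23 to 30 and 0 without mice 1 to 11, where the log2 fold change of Hspa5 was 0.53 (adjusted p = 0.20; 2.6e-09 to 0.20 over 10 alternatives). In bulk RNA, more RNA per cell and more cells of a type cannot be told apart.

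**Figure D2:**
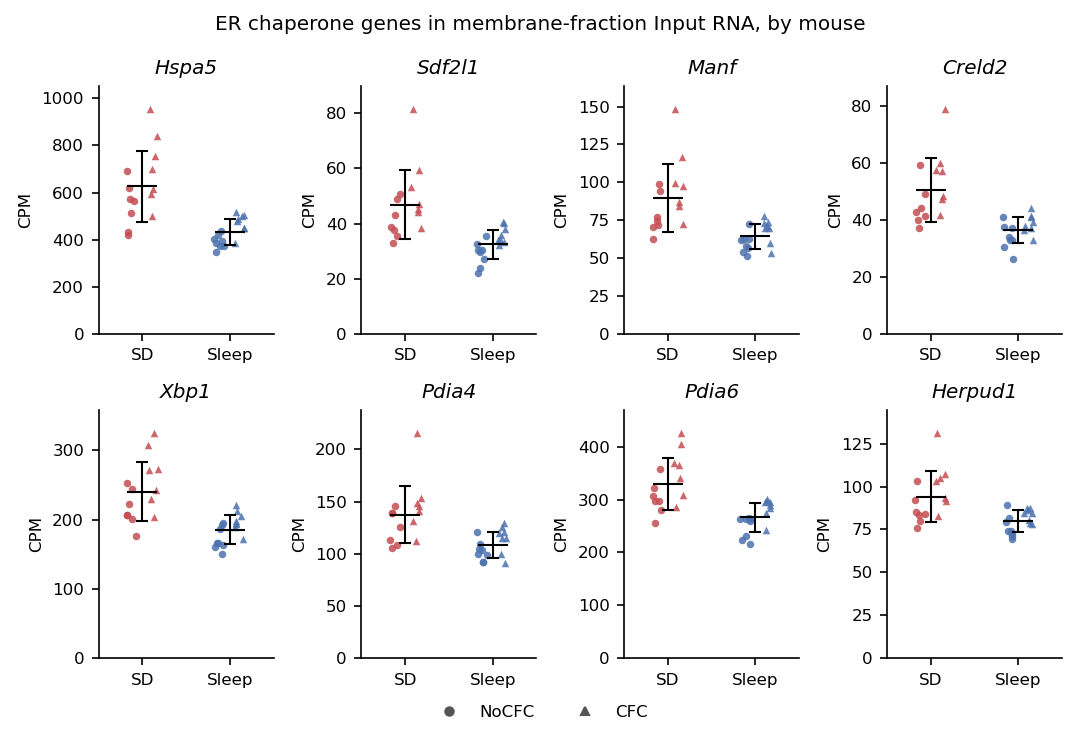
CPM of 8 ER chaperone and stress genes in each mouse, SD left (14 mice) and Sleep right (16 mice), with circles for NoCFC and triangles for CFC; black bars are the mean and 1 standard deviation. For Hspa5 10 SD mice lie above the highest Sleep mouse, at 519 CPM, and both arms show the difference.

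The neighbouring lists of the secretory and stress machinery held calls at near the share over all genes, of which 1.05% rose and 0.32% fell. In lists of 20 to 42 genes, 0 calls is near that share. Of 42 tested genes of the translocon, signal peptidase, oligosaccharyltransferase and COPII coat, which import, modify and export new proteins, 0 passed in either direction, with log2 fold changes from -0.08 to 0.16 and a median of 0.03. At an unadjusted p below 0.05, 4 of these were higher and 0 lower, and DESeq2 called 0. Of 21 genes of the integrated stress response, the arm that acts through Atf4, 0 passed, with 4 higher and 0 lower at an unadjusted p below 0.05 and 0 by DESeq2. Atf4 itself was at 0.11 ± 0.05 (adjusted p = 0.416). Of 20 aminoacyl-tRNA synthetases, which include Atf4 targets, 0 passed, with 0 higher and 1 lower at an unadjusted p below 0.05 and 0 by DESeq2. Of 25 cytosolic heat shock genes Dnajb1, a cochaperone of cytosolic Hsp70, rose by 0.22 ± 0.06 (adjusted p = 0.0297), and 12 were higher and 0 lower at an unadjusted p below 0.05, as were 947 and 654 of all 15642 genes. The median of that list was 0.10, above that of the ER list, and 21 of its 25 genes had a positive log2 fold change. Hspa1b, the inducible Hsp70, was at 0.25 ± 0.11 (adjusted p = 0.381).

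Glucocorticoid target genes held the largest called change of any list, that of Hif3a. Of 30 tested genes 9 rose and 0 fell, where 1.05% of all genes rose and 0.32% fell. The median log2 fold change of the list was 0.15. The count of genes that rose was 1 without mice 1 to 11, 4 without mice 23 to 30 and 5 without the libraries high in Ttr. Sgk1 (chromosome 10, 21882184 to 21999903), a kinase that regulates ion channels and transporters, was at 36.1 to 169 CPM in SD mice (median 58.9), against 33.8 to 55.5 CPM in Sleep mice (median 41.4). It lay above every Sleep mouse in 9 of 14 SD mice, and the 7 CFC SD mice, at 58.8 to 169 CPM, did not overlap with the 8 CFC Sleep mice, at 34.1 to 55.5 CPM. The log2 fold change was 0.78 ± 0.11 (adjusted p = 0.000169), with 0.36 within mice 1 to 11, 1.01 within mice 12 to 22 and 0.82 within mice 23 to 30.

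The promoter of Sgk1 is shown because it alone, of 9 with a called gene on this list, holds the glucocorticoid response element, searched as GNACA and TGTNC with 3 bases of any kind between them (N is any base), which stands in capitals (chr10:21993677-21993739, GRCm38.p6, plus strand, RefSeq). The element was searched on both strands and was in 0.475% of all promoters and in 2 of 18 promoters of list genes that did not pass, Map3k6 and Mt1.
Sgk1: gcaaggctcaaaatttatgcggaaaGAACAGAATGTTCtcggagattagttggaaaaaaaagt

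Tsc22d3 (GILZ; chromosome X, 140539528 to 140600659), a glucocorticoid-induced transcriptional regulator, was at 69.0 to 285 CPM in SD mice (median 139), against 67.8 to 118 CPM in Sleep mice (median 78.3). All 7 CFC SD mice, at 139.0 to 285 CPM, were above all CFC Sleep mice, at 81.2 to 118 CPM, whereas the NoCFC groups overlapped. The change was 0.65 ± 0.09 (adjusted p = 4.27e-05), and 0.37, 0.62 and 0.95 within the runs from the lowest to the highest mouse numbers. Cdkn1a (p21; chromosome 17, 29090976 to 29100727), a cell cycle inhibitor that p53 also induces, was at 3.76 to 13.9 CPM in SD mice (median 6.31), against 2.51 to 5.75 CPM in Sleep mice (median 3.84). The difference was 0.79 ± 0.11 (adjusted p = 2.86e-05), and Cdkn1a kept its call under all 10 alternatives. It lay above the Sleep median of its arm in 13 of 14 SD mice and above every Sleep mouse in 10.

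Hif3a, a hypoxia-inducible factor subunit, was at 1.56 to 8.25 CPM in SD mice (median 4.65), against 0.767 to 5.60 CPM in Sleep mice (median 2.31). It had the largest change on the list, 1.02 ± 0.22 (adjusted p = 0.012), at a low level, and its call was lost without the 7 libraries high in Ttr and without any single run of mice. The other genes that rose were Nfkbia, the inhibitor of NF-kB, by 0.37 ± 0.07 (adjusted p = 0.00249), Errfi1, an inhibitor of the EGF receptor, by 0.32 ± 0.06 (adjusted p = 0.00249), and the transcription factors Klf15 by 0.31 ± 0.06 and Klf9 by 0.17 ± 0.04 (adjusted p = 0.0012 and 0.0187). Slc2a1, the glucose transporter of the blood-brain barrier, rose by 0.18 ± 0.04 (adjusted p = 0.0176). Not all known targets passed. Fkbp5, a cochaperone that restrains the receptor, was at 0.23 ± 0.07, Per1 at 0.03 ± 0.15 and the metallothionein Mt1 at -0.04 ± 0.08 (adjusted p = 0.0825, 0.966 and 0.926). Nr3c1, which encodes the glucocorticoid receptor, was at 65.7 to 79.1 CPM in SD mice (median 73.9), against 70.4 to 91.6 CPM in Sleep mice (median 80.8). It lay below the Sleep median of its arm in 14 of 14 SD mice and changed by -0.14 ± 0.04 (adjusted p = 0.0462), a call that was lost with the run of mice as a term, among other alternatives. Nr3c1 was chosen after its values were seen.

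**Figure D3:**
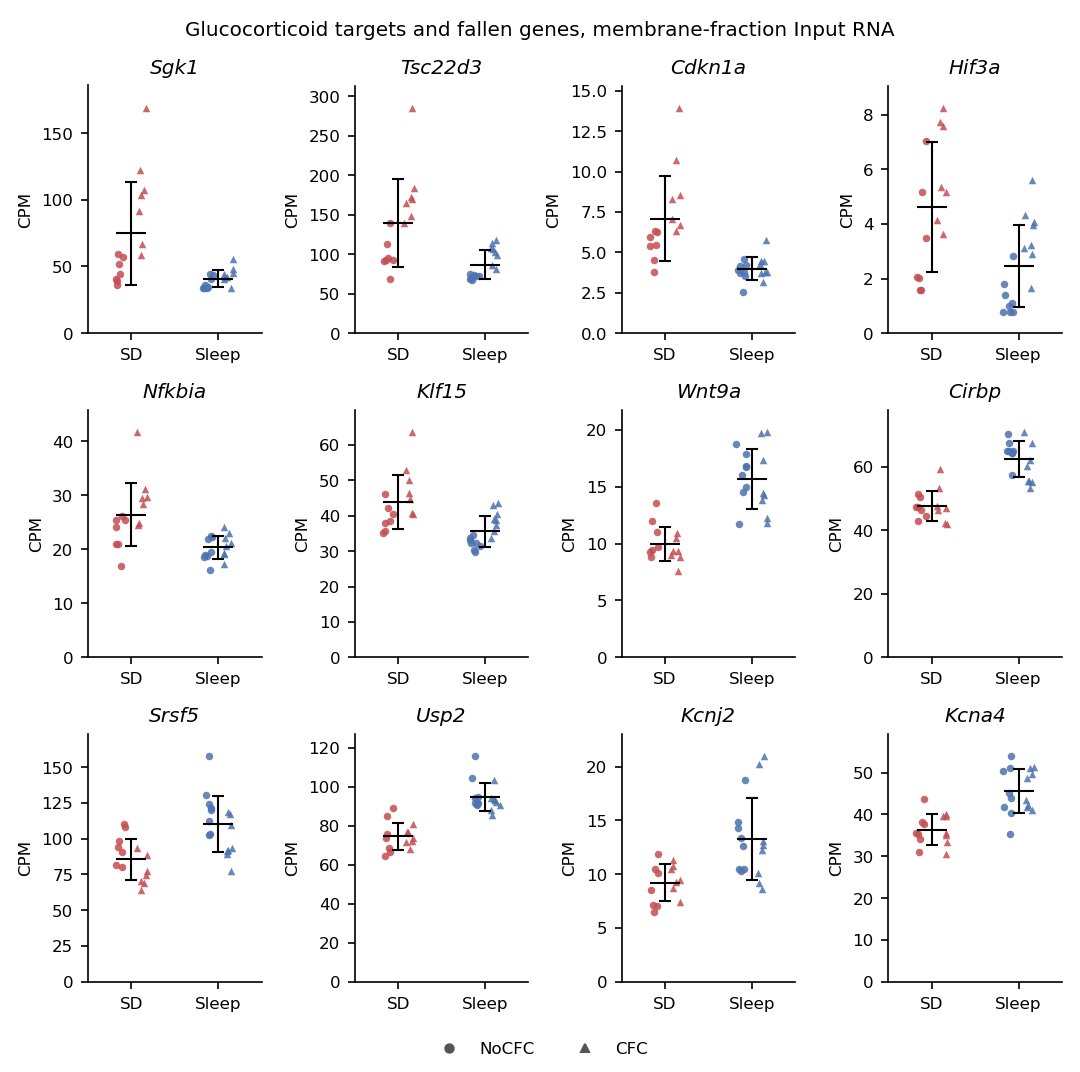
CPM of 6 glucocorticoid target genes (Sgk1 to Klf15) and 6 genes lower in SD (Wnt9a to Kcna4) in each mouse, SD left and Sleep right, with circles for NoCFC and triangles for CFC; black bars are the mean and 1 standard deviation. The highest values of Sgk1 and Tsc22d3 are those of CFC SD mice, and 13 of 14 SD mice lie below every Sleep mouse for Usp2.

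Activity-regulated genes, which neurons switch on when calcium enters, split into those that rose and a larger number that did not pass. Of 55 tested, 8 rose and 1 fell, where 1.05% of all genes rose and 0.32% fell. The median log2 fold change of the list was 0.10. Without mice 1 to 11, 12 to 22 or 23 to 30 the count that rose was 0, 4 or 4, and without a filter on low counts or without the libraries high in Ttr it was 5. Fos (chromosome 12, 85473890 to 85477273), an AP-1 transcription factor, was at 4.82 to 10.9 CPM in SD mice (median 7.35), against 3.07 to 9.86 CPM in Sleep mice (median 4.44). The groups overlapped, with 13 of 14 SD mice above the Sleep median of their arm, and the change was 0.59 ± 0.14 (adjusted p = 0.0199). Arc, a synaptic protein that removes AMPA receptors from synapses, was at 114 to 216 CPM in SD mice (median 153), against 96.3 to 159 CPM in Sleep mice (median 124). It rose by 0.34 ± 0.08 (adjusted p = 0.0216), with 0.52 within mice 1 to 11, 0.19 within mice 12 to 22 and 0.23 within mice 23 to 30. Without the 7 libraries high in Ttr neither Fos (0.41) nor Arc (0.26) passed.

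Secreted and signalling members were also among those that rose. Inhba, a subunit of activin, was at 12.9 to 16.5 CPM in SD mice (median 14.3), against 6.76 to 14.5 CPM in Sleep mice (median 10.5), and rose by 0.42 ± 0.07 (adjusted p = 0.000776). Alkal2, a ligand of the receptors Alk and Ltk, rose by 0.56 ± 0.09, Dusp5, a nuclear phosphatase of ERK, by 0.42 ± 0.08, the nuclear receptor Nr4a1 by 0.32 ± 0.07 and the protease gene Plat, which encodes tissue plasminogen activator, by 0.21 ± 0.05 (adjusted p = 0.000128, 0.00191, 0.0178 and 0.0131). Errfi1, given above, is also on this list. Ptgs2, the inducible cyclooxygenase, fell by 0.23 ± 0.06 on the log2 scale (adjusted p = 0.0473). Other members gave no call: Egr1 was at -0.05 ± 0.06, Npas4 at 0.13 ± 0.21, Fosb at 0.10 ± 0.17, Homer1 at 0.11 ± 0.05 and Bdnf at -0.13 ± 0.04 (adjusted p = 0.87, 0.901, 0.901, 0.391 and 0.178). The cyclic AMP response element TGACGTCA was in the promoter of 1 of 7 called genes of the list that had a promoter in the table (Errfi1), in 7 of 34 that were not called, and in 1.79% of all promoters.

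**Figure D4:**
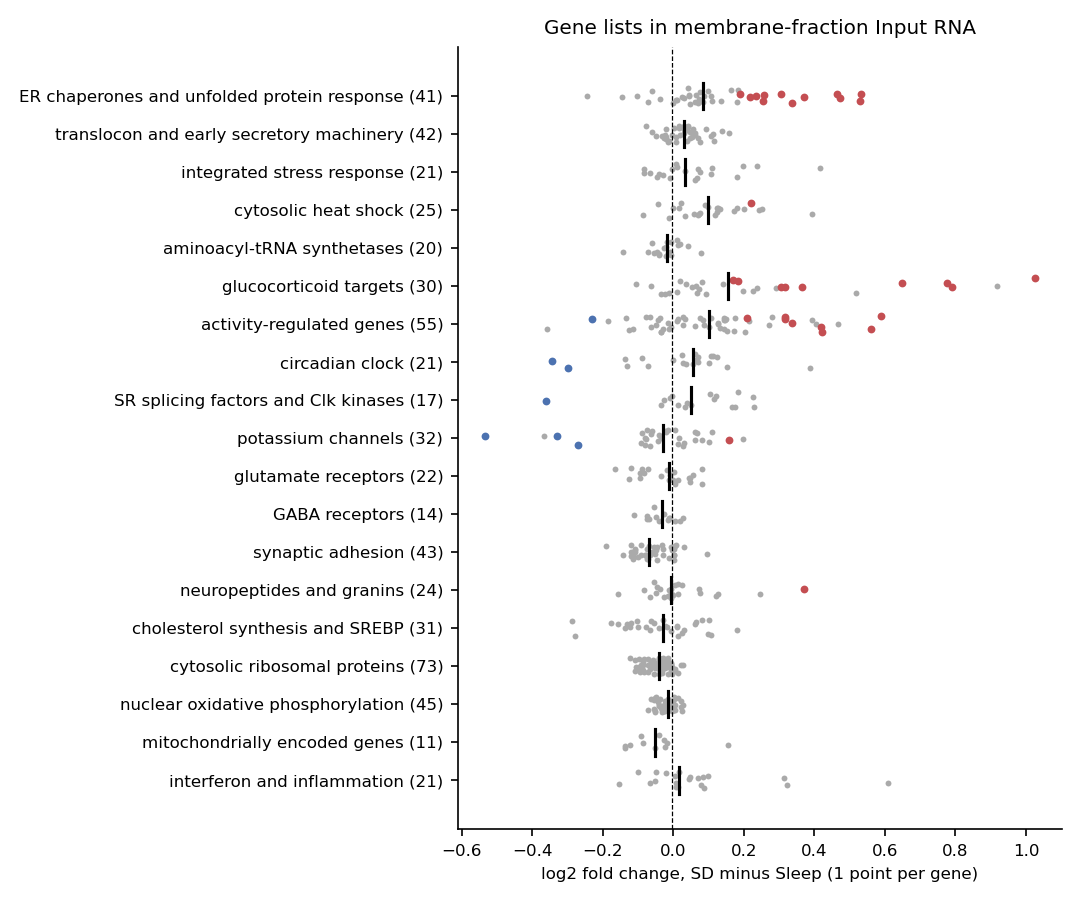
Log2 fold change (SD minus Sleep) of every tested gene of 19 gene lists, 1 point per gene, with the number tested in parentheses; genes that passed the test are red (higher in SD) or blue (lower in SD), black bars are list medians and the dashed line is the median of all genes. Red points gather in the ER chaperone, glucocorticoid and activity lists, and the 42 genes of the translocon list are all grey.

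Genes that fell were ranked by size of change if their mean level over all libraries, as log2 CPM, was 3 or more. They also had the same sign in all 3 runs, and predicted and unnamed genes were passed over. Among those ranked, Wnt9a (chromosome 11, 59306928 to 59333552), which encodes a secreted Wnt ligand, had the largest change. It was at 7.56 to 13.5 CPM in SD mice (median 9.40), against 11.7 to 19.8 CPM in Sleep mice (median 15.5), so 12 of 14 SD mice lay below every Sleep mouse. The log2 fold change was -0.67 ± 0.08 (adjusted p = 7.75e-06), with -0.51, -0.75 and -0.66 within the runs from the lowest to the highest mouse numbers, and it kept its call under all 10 alternatives. Cirbp (chromosome 10, 80165985 to 80172786), a cold-inducible RNA-binding protein whose transcript falls with rising temperature, was at 41.8 to 59.3 CPM in SD mice (median 47.2), against 53.2 to 70.8 CPM in Sleep mice (median 64.4). It was below every Sleep mouse in 12 of 14 SD mice and fell by 0.39 ± 0.05 on the log2 scale (adjusted p = 9.04e-06), and of the 10 alternatives its call was lost only without mice 1 to 11. Rbm3, its close relative, was at -0.27 ± 0.08 and did not pass with edgeR (adjusted p = 0.0611), but was lower with DESeq2 (adjusted p = 0.029) and in cytosolic Input, at -0.36 ± 0.06 (adjusted p = 0.000498). Srsf5, an SR splicing factor, was at 64.1 to 110 CPM in SD mice (median 85), against 77.6 to 157 CPM in Sleep mice (median 111), and changed by -0.36 ± 0.07 (adjusted p = 0.00224). It was the only member of 17 SR and Clk kinase genes that passed, where 0.32% of all genes fell, and the median of that list was 0.05.

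Of 21 clock genes 2 fell and 0 rose, where 0.32% of all genes fell and 1.05% rose. Both that fell are clock outputs. Usp2 (chromosome 9, 44067021 to 44095627), a deubiquitinase with daily rhythm, was at 64.5 to 89.3 CPM in SD mice (median 73.7), against 85.5 to 115 CPM in Sleep mice (median 92.5). Only 1 SD mouse reached the Sleep range, and the change was -0.34 ± 0.05 (adjusted p = 1.56e-05), kept under all 10 alternatives. Dbp, a D-box transcription factor, changed by -0.30 ± 0.07 (adjusted p = 0.0257). Usp2 and Dbp share exons with other genes, so their counts are uncertain. The repressors of the clock did not pass: Per1 was at 0.03 ± 0.15 and Per2 at 0.15 ± 0.07 (adjusted p = 0.966 and 0.415). Nfil3, which acts against Dbp at D-boxes, was at 0.39 ± 0.11 (adjusted p = 0.0816, or 0.0452 with DESeq2).

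Potassium channels, which set the resting potential and repolarize neurons, had 3 lower and 1 higher of 32 tested, and their median was -0.03. Over all genes tested 0.32% were lower and 1.05% higher. Kcnj2 (Kir2.1; chromosome 11, 111066164 to 111076821), an inward rectifier, was at 6.45 to 11.8 CPM in SD mice (median 9.36), against 8.63 to 20.9 CPM in Sleep mice (median 12.6), and changed by -0.53 ± 0.12 (adjusted p = 0.0179). The voltage-gated A-type subunit Kcna4 (Kv1.4; chromosome 2, 107290639 to 107298502) was at 30.5 to 43.7 CPM in SD mice (median 35.6), against 35.2 to 53.9 CPM in Sleep mice (median 44.5), and changed by -0.33 ± 0.06 (adjusted p = 0.000855). For both genes 14 of 14 SD mice lay below the Sleep median of their arm and the ranges overlapped. Kcnv1, a silent modifier subunit, changed by -0.27 ± 0.05, and Kcnn2, a calcium-activated SK channel, by 0.16 ± 0.04 (adjusted p = 0.00263 and 0.0379). Without the 7 libraries high in Ttr 1 of the 3 falls passed, that of Kcna4, and without mice 1 to 11, 12 to 22 or 23 to 30 the count was 0, 1 or 1.

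Other genes that fell were Hes5, a Notch target of neural precursors and astrocytes, by 0.36 ± 0.07 on the log2 scale, Hnrnpdl, an RNA-binding protein, by 0.32 ± 0.06, Car7, a carbonic anhydrase of neurons, by 0.30 ± 0.07, and Chpf2, an enzyme of chondroitin synthesis, by 0.43 ± 0.10 (adjusted p = 0.00163, 0.0028, 0.0232 and 0.0178). Plekho2, whose product has a pleckstrin homology domain, fell by 0.29 ± 0.07 (adjusted p = 0.0178).

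Further genes that rose are given singly, since they belong to no list. Pfkfb3 and Mfsd2a were named by size of change, and Depp1, Adm, P4ha1, Gpt2 and Vegfa were chosen after their values were seen. Pfkfb3 (chromosome 2, 11471433 to 11554077), which drives glycolysis through fructose 2,6-bisphosphate, was at 19.4 to 29.4 CPM in SD mice (median 21.7), against 14.1 to 20.4 CPM in Sleep mice (median 17.1). It was above every Sleep mouse in 11 of 14 SD mice and rose by 0.43 ± 0.06 (adjusted p = 4.34e-05). Depp1, a gene induced by FoxO factors, was at 0.829 to 2.59 CPM in SD mice (median 1.43), against 0 to 1.27 CPM in Sleep mice (median 0.439). Its log2 fold change of 1.78 ± 0.27 (adjusted p = 8.52e-05) was the largest of all called genes and rests on few counts. Adm, the vasodilator peptide adrenomedullin, rose by 0.70 ± 0.14, P4ha1, a collagen prolyl hydroxylase, by 0.38 ± 0.05, Gpt2, the mitochondrial alanine aminotransferase, by 0.34 ± 0.05, and Vegfa, the vascular growth factor, by 0.25 ± 0.06 (adjusted p = 0.00527, 4.07e-05, 4.07e-05 and 0.0304).

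Mfsd2a (chromosome 4, 122946850 to 122961188), a lysophospholipid transporter of brain endothelium and other cells, was at 29 to 68.7 CPM in SD mice (median 37.4), against 19.96 to 42.7 CPM in Sleep mice (median 29.4). It rose by 0.42 ± 0.07 (adjusted p = 0.00036). It lay above the Sleep median of its arm in 14 of 14 SD mice and above every Sleep mouse in 6. Plekhf1, an endosomal and lysosomal protein and also chosen after its values were seen, had the smallest p of all genes. It was at 3.67 to 13.6 CPM in SD mice (median 6.07), against 2.29 to 4.27 CPM in Sleep mice (median 3.72), and rose by 0.91 ± 0.11 (adjusted p = 6.08e-06). The remaining genes named by size of change were Fam43a at 0.49 ± 0.09, Igdcc3, an immunoglobulin superfamily member, at 0.46 ± 0.09 and Mkks, a chaperonin-like protein of the basal body, at 0.43 ± 0.07 (adjusted p = 0.000843, 0.0018 and 0.000608).

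At most 1 marker of each cell type passed the test, where 1.05% of all genes rose and 0.32% fell. In lists of this size, 1 call is a higher share than that over all genes. Of 24 astrocyte markers 1 rose, Gjb6, the gap junction protein connexin 30, which was at 135 to 299 CPM in SD mice (median 195), against 115 to 190 CPM in Sleep mice (median 149). Its change of 0.38 ± 0.06 (adjusted p = 5.18e-05) was kept under all 10 alternatives, and the median of the astrocyte markers was 0.01. Of 20 oligodendrocyte markers Opalin, a myelin protein, fell by 0.29 ± 0.06 on the log2 scale, and of 11 markers of oligodendrocyte precursors Gpr17, a receptor of cells about to differentiate, rose by 0.30 ± 0.07 (adjusted p = 0.0107 and 0.0163). Of 19 microglial markers P2ry13, a purinergic receptor, fell by 0.24 ± 0.05, and of 15 excitatory neuron markers Lmo4, a transcriptional cofactor, fell by 0.17 ± 0.04 (adjusted p = 0.0106 and 0.0274). The excitatory neuron markers had a median of -0.07, with -0.12 in CFC and -0.04 in NoCFC mice. Of these 15 markers 14 had a negative log2 fold change, and 0 were higher and 3 lower at an unadjusted p below 0.05. Of 22 inhibitory neuron markers 18 had a negative log2 fold change, with a median of -0.03. Of 20 endothelial markers only Slc2a1 passed. Among the markers of dentate granule, CA1, CA3 or CA2, inhibitory, pericyte, fibroblast, choroid plexus and blood cells 0 passed with edgeR and 0 with DESeq2. At an unadjusted p below 0.05 there were 0, 2, 1, 1, 0, 0, 0 and 0 higher and 1, 1, 0, 1, 0, 0, 0 and 0 lower, in that order. The part of cell composition in the changes above was not tested.

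Most other lists held no call, where 1.05% of all genes tested rose and 0.32% fell. In lists of 11 to 73 genes, 0 calls is near that share and says little of these genes. With edgeR 0 genes passed among 73 cytosolic ribosomal protein genes, 45 nuclear and 11 mitochondrially encoded genes of oxidative phosphorylation and its ribosome, 22 glutamate receptors, 14 GABA receptors, 43 synaptic adhesion genes, 31 cholesterol genes and 21 inflammation genes. At an unadjusted p below 0.05 they held 0, 0, 0, 0, 0, 0, 3 and 1 higher and 1, 0, 1, 0, 1, 5, 4 and 0 lower genes in that order, and DESeq2 called 1 gene, a lower one of synaptic adhesion. The medians lay between -0.07 for synaptic adhesion and 0.02 for inflammation. The genes behind the capture antibodies and Cre driver did not pass either: Camk2a was at -0.14 ± 0.13, Rpl22 at -0.03 ± 0.04 and Rps6 at 0.02 ± 0.05 (adjusted p = 0.813, 0.899 and 0.932).

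The effect of sleep loss was next set out by training arm. In CFC mice 45 genes were higher and 10 lower in SD (0.352% of those tested), and in NoCFC mice 9 were higher and 5 lower (0.0895%). DESeq2 called 57 higher and 17 lower in CFC mice and 39 higher and 11 lower in NoCFC mice. The test of the difference between the arms called 0% of genes, 0 of 15642 with edgeR and 0 with DESeq2, with 421 at an unadjusted p below 0.05. In simulated counts the edgeR test recovered 53 of 100 genes that differed 1.5-fold between arms and 73 of 100 that differed 2-fold. Among genes with a mean log2 CPM of 3 or more, predicted and unnamed genes passed over, Sgk1 had the smallest p. It changed by 1.23 ± 0.16 in CFC mice and 0.32 ± 0.16 in NoCFC mice, a difference of 0.90 ± 0.23 (unadjusted p = 0.00044, adjusted p = 1.00). Fgfr1op, a centrosomal protein, changed by 0.38 ± 0.10 in CFC and -0.12 ± 0.10 in NoCFC mice, and Ankrd24 by -0.31 ± 0.07 in CFC and 0.03 ± 0.07 in NoCFC mice (unadjusted p = 0.00121 and 0.00161, adjusted p = 1.00 for both). For Hspa5 the changes were 0.59 in CFC and 0.48 in NoCFC mice, and for Wnt9a -0.73 and -0.60. The choroid plexus markers went opposite ways in the arms, with a median log2 fold change of 1.29 in CFC and -1.25 in NoCFC mice. The part of such tissue in the values by arm was not tested. Up to mouse 22 each run held 1 training arm, so the arms and the runs cannot be told apart there.

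The cytosolic Input of the same mice, from the supernatant, was set beside the membrane Input to ask whether the changes belonged to membrane-bound RNA. In cytosolic Input 325 genes were higher (2.04%) and 181 lower (1.13%) of 15948. Genes higher in both fractions numbered 101, which is 61.6% of those higher in the membrane and 31.1% of those higher in the cytosol, and 26 were lower in both, 52.0% and 14.4%. Genes called in opposite directions numbered 0. A test of the difference between the fractions' changes called 0% of genes, 0 of 16529 with edgeR and 0 with DESeq2. At an unadjusted p below 0.05 there were 554, and with the mouse as a replicate block 0 genes passed. Counts were simulated with no effect shared by the libraries of a mouse. In these the edgeR test recovered 20 of 98 genes that differed 1.2-fold between fractions and 62 of 99 that differed 1.5-fold. So 0 calls does not show equal changes in both fractions. The differences and SEs given next are from the fit without the mouse block.

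Hspa5 changed by 0.53 ± 0.07 in membrane and 0.44 ± 0.09 in cytosolic Input, a difference of 0.10 ± 0.13. Sdf2l1 changed by 0.53 ± 0.09 in membrane and 0.62 ± 0.11 in cytosolic Input, and Sgk1 by 0.78 ± 0.11 in membrane and 0.64 ± 0.09 in cytosolic Input, with differences of -0.09 ± 0.15 and 0.14 ± 0.15. Wnt9a was at -0.67 ± 0.08 in membrane and -0.85 ± 0.07 in cytosolic Input (difference 0.19 ± 0.11), and Cirbp at -0.39 ± 0.05 in membrane and -0.38 ± 0.04 in cytosolic Input (difference -0.01 ± 0.07). Of the ER list 12 genes rose in membrane and 9 in cytosolic Input, and of the activity list 8 rose in membrane and 16 in cytosolic Input. Over all genes tested 1.05% rose in membrane and 2.04% in cytosolic Input, so these counts alone do not set the fractions apart. Genes with the smallest p for a difference were Gnpat, an enzyme of ether lipid synthesis, at 0.15 ± 0.04 in membrane and -0.04 ± 0.03 in cytosolic Input, Inpp5d, an inositol phosphatase of microglia, at -0.07 ± 0.07 in membrane and 0.24 ± 0.06 in cytosolic Input, and Ccdc66, at 0.14 ± 0.08 in membrane and -0.20 ± 0.06 in cytosolic Input (unadjusted p = 0.000151, 0.000976 and 0.00101, adjusted p = 1.00 for all).

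**Figure D5:**
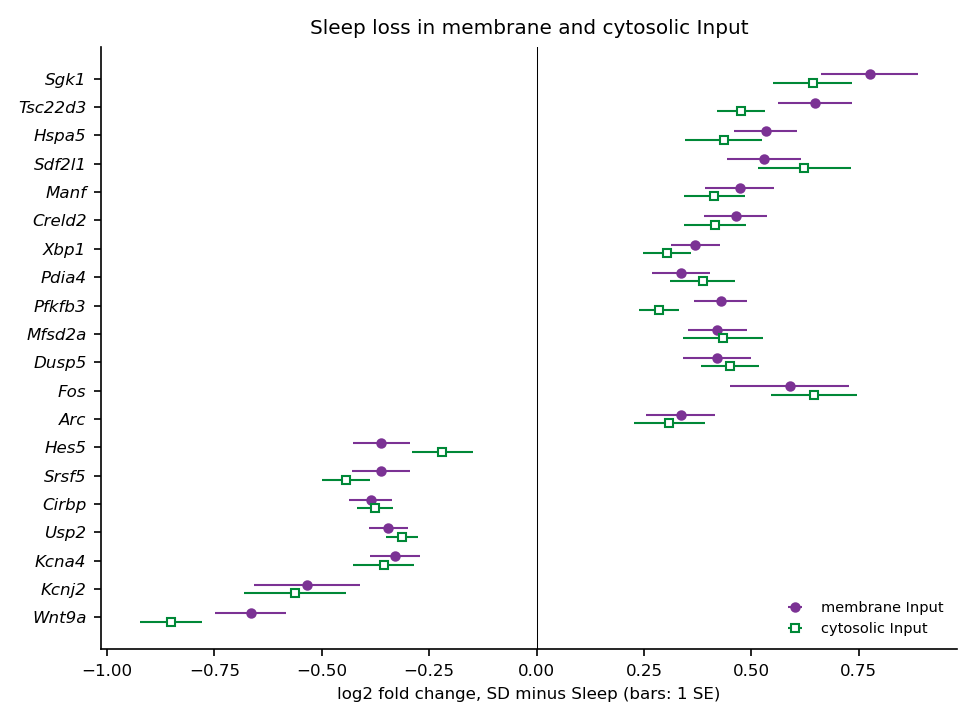
Log2 fold change (SD minus Sleep, x axis) of 20 genes in membrane Input (filled circles) and cytosolic Input (open squares), with bars of 1 SE. The 20 genes, with Sgk1 at the top and Wnt9a at the bottom, were picked from those that passed in membrane Input, with results known. Their points lie on the same side of 0 in both fractions, which therefore says nothing of other genes. Kcnn2 (0.16 in membrane, -0.04 in cytosolic Input) and Gnpat (0.15 and -0.04) also passed in membrane Input and are not drawn.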

How the data were processed

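RNA of hippocampal membrane Input was sequenced from 30 mice. The deposited table holds counts of reads per gene for 54429 genes, whole numbers with no normalization. Per the submitters' processing notes the build was GRCm38.p6 and the tools STAR 2.6.1a, featureCounts and MultiQC 1.6a0; the labels' protocols give a SMART-seq v4 kit. Counting settings and strand are not given in the sources used here. Of the 95 genes analysed by name, exons of 24 overlap another gene, and their counts are uncertain. Besides those marked above, they include Alkal2, Ccdc66, Cdkn1a, Chpf2, Dnajb9, Dusp5, Gnpat, Gpr17, Hdac4 and Hes5. Hsp90b1, Kcnn2, Mkks, Pdia3, Pdia4, Pdia6, Slc2a1 and Slc6a6 are also among them. Counts were fitted in edgeR 4.0.16 (R 4.3.3, limma 3.58.1, statmod 1.5.0): filterByExpr, TMM scaling, a 4-group model of the 30 libraries, robust quasi-likelihood F-test, Benjamini-Hochberg adjustment, threshold 0.05. SE is the absolute log2 fold change divided by the square root of F, and CPM uses TMM-scaled library sizes. Differences within runs are of mean log2 CPM with a prior count of 2. The fraction test used 60 libraries. The method was tested on simulated data. Simulated libraries were drawn independently, with no effect of the mouse or the run of mice, so recovery in the real data may differ. Positions are from GENCODE vM21 (53775 of 54429 symbols found, 98.8%).

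The members, gene lists, comparisons and alternatives were chosen with earlier results of these data known. Named genes are list members and the 12 higher and 12 lower called genes that changed most. The latter had a mean log2 CPM of 3 or more and the same sign in all 3 runs. For the tests of differences, the 3 of smallest p at that level are named. Predicted and unnamed genes, such as those with Gm or Rik names, were passed over in each ranking. Others are said to be chosen after their values were seen. Alternatives were DESeq2 1.42.0, its size factors, no filter, the run of mice as a term, removal of mitochondrial genes, leaving out each run, and, chosen after seeing the data, leaving out 7 libraries high in Ttr or 3 apart on the first component.

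Membrane and cytosolic Input of a mouse come from the same animal, by the number in the titles and the extract protocol. After removal of group means, same-mouse libraries correlated with a median of 0.168, against -0.00935 for different mice, and 25 of 30 were over 0.1. Deposited copies of a library were looked for within groups: in 98 pairs the lowest chi-square per degree of freedom was 3.75. The labels name each number as a mouse, and p-values measure the spread between mice. With no molecular identifiers, reads are not independent molecules.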

Additional observations from a re-analysis of the deposited data

Results flagged for a closer look

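In 20 of 380 groups of 7 or 8 mice a single mouse lay farther from the others than Dixon's 95% limit, which chance gives in about 1 of 20 groups. In CFC Sleep mouse 16, whose library lay apart on the first component, 6 genes were lowest in their group: Camk2a at 1037 CPM, Hyou1 at 20.4 CPM, Per1 at 6.75 CPM, Chpf2 at 21.2 CPM, Lmo4 at 73.7 CPM and Htr1a at 50.1 CPM. In CFC SD mouse 22, another such library, Per2 was lowest at 16.7 CPM and Mt1 at 343 CPM. In CFC SD mouse 30 Tsc22d3 was highest at 285 CPM, and without the 3 libraries apart on the first component it still passed.

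Ttr, the choroid plexus transcript, was highest at 1568 CPM in NoCFC SD mouse 7 and at 2419 CPM in CFC Sleep mouse 14. In SD mice Gpt2 was highest at 109 CPM in NoCFC mouse 28 and Egr1 at 139 CPM in NoCFC mouse 9. In NoCFC Sleep mice the lowest values were Mkks at 5.70 CPM in mouse 2, Cirbp at 57.5 CPM in mouse 6, Alkal2 at 2.74 CPM in mouse 1, Cdkn1a at 2.51 CPM in mouse 24 and Inpp5d at 10.9 CPM in mouse 3. In CFC Sleep mouse 17 Pdia6 was lowest at 242 CPM and P4ha1 at 74.8 CPM.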

How the results depend on the processing

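The calls depended on the mice: 4 genes passed under all 10 alternatives, Cdkn1a, Gjb6, Usp2 and Wnt9a. Against 164 higher and 50 lower, leaving out mice 1 to 11 gave 3 and 3, mice 12 to 22 52 and 25, mice 23 to 30 35 and 6, and the 7 libraries high in Ttr 71 and 21; these fits have fewer mice. Lower genes numbered 30 without a filter and 81 with DESeq2. DESeq2 called 39 higher and 11 lower in NoCFC and 17 lower in CFC. Of the ER list 0 were higher without mice 1 to 11 and 5 without mice 23 to 30. Of the glucocorticoid list 1, 4 and 5 were higher without mice 1 to 11, mice 23 to 30 and the Ttr libraries. Of the activity list 5 were higher with no filter, 0, 4 and 4 without each run in turn and 5 without the Ttr libraries; 0 were lower with no filter, the run as a term, without mice 1 to 11, mice 23 to 30 or the Ttr libraries, and 2 with DESeq2 or without the 3 libraries apart. Of potassium channels 0 were higher without a filter, any run, the Ttr libraries or the 3 apart, and 0, 1, 1 and 1 lower without each run in turn and the Ttr libraries. For the other settings the cause was not tested. The replicate block, used for the fraction test alone, left it at 0 calls. Of the 69 named genes past the threshold, 65 lost their call without mice 1 to 11, 32 without mice 12 to 22, 42 without mice 23 to 30, 27 without the Ttr libraries and 11 without the 3 apart. Depth limits genes with few counts, such as Depp1 and Hif3a.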

Other observations

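Among receptors and transporters chosen after their values were seen, Htr1a, the serotonin 1A receptor, was at 50.6 to 82.1 CPM in SD mice (median 65.3), against 38.6 to 63.8 CPM in Sleep mice (median 57.5), and rose by 0.30 ± 0.07 on the log2 scale (edgeR, adjusted p = 0.0131). Npy1r, a neuropeptide Y receptor, was at 34.2 to 54.2 CPM in SD mice (median 43.5), against 44.1 to 58.3 CPM in Sleep mice (median 49.6), and fell by 0.22 ± 0.05 (adjusted p = 0.0107). Slc6a6, the taurine transporter, was at 90.4 to 122 CPM in SD mice (median 113), against 114 to 146 CPM in Sleep mice (median 129), and fell by 0.23 ± 0.04 (adjusted p = 0.000525). It lay below the Sleep median of its arm in 14 of 14 SD mice. Slc38a2, an amino acid transporter, rose by 0.27 ± 0.07 (adjusted p = 0.0265).

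In lists with a single call, Crh, corticotropin-releasing hormone, rose by 0.37 ± 0.10 among 24 neuropeptide and granin genes (adjusted p = 0.0462), at 4.59 to 8.06 CPM in SD mice and 3.02 to 6.49 CPM in Sleep mice. Hdac4, a histone deacetylase that shuttles with calcium signals, rose by 0.20 ± 0.04 among 41 chromatin modifiers (adjusted p = 0.00614), and in cytosolic Input by 0.38 ± 0.05. Dlx6os1, the long noncoding RNA also named Evf2, rose by 0.34 ± 0.09 among 19 long noncoding RNAs (adjusted p = 0.0274); its exons overlap other genes, so its count is uncertain. For these lists, 1.05% of all genes tested rose. Without the 7 libraries high in Ttr Crh, Dlx6os1, Slc38a2 and Npy1r did not pass.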
